A study of Mus musculus with 2 samples.

Results

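T cell costimulation ligands are surface or secreted proteins through which a macrophage or dendritic cell adds to, or restrains, the signal that a T cell receives from its antigen receptor. A group of 10 such genes was examined, 7 of the B7 family (Cd80, Cd86, Cd274, Pdcd1lg2, Icosl, Cd276 and Vsir) and 3 others (Icam1, Lgals9 and Cd48). They were listed by name for what their proteins do, with earlier results of these data known, and found through the transcript accession of each array probe. This gave 17 probes of 56598, for 10 genes of 22910 that could be named.

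RNA came from 2 cultures of bone marrow of C57BL/6 mice, which the labels give as male, with no age. The primary macrophages were adherent cells at day 5 of culture. The self-renewing macrophages had been carried through passage 4, at which most cells of such a culture stop dividing and colonies grow out. Per the methods they were by default used in bulk rather than as clones. Neither culture is labelled with any stimulus other than recombinant human M-CSF, the growth factor of macrophages, at 100 ng/ml in both. Each was hybridised to 1 Agilent array, so that no difference below has a replicate check and no test was made. In bulk RNA of this kind, fewer cells of a type and less RNA per cell cannot be told apart.

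The primary array disagreed with the male label, and the self-renewing array did not. A probe is called detected where the scanner software flagged it as well above background. Of 4 Y-linked genes looked at, 0 were detected in the primary and 4 in the self-renewing macrophages, while Xist was detected in the primary macrophages only, and differences between the cultures cannot be told apart from a difference in donor sex. All 8 macrophage markers were detected on both arrays, with a median difference of 0.34 log2. They were not all level, since Mertk was 4.68-fold higher and Fcgr1 3.39-fold lower in the self-renewing macrophages. Among markers of other cells, the clearest shift was in neutrophil genes, of which 8 of 9 were detected in the primary and 4 in the self-renewing macrophages, with summed intensities of 51690 and 2911. Dendritic cell markers were detected for 6 of 8 against 3 of 8, with summed intensities of 5886 and 802, most of which was Itgax at 5180 and 597. Of these markers 5 were lower and Zbtb46 was 0.62 log2 higher. B cell markers were detected for 4 of 7 against 2 of 7, with summed intensities of 854 and 137, where Cd79b alone gave 696 and 2.96. Cd79a differed by 0.41 and Pax5 by -0.03 log2. Ms4a1 and Ebf1 of B cells and Xcr1 and Clec9a of dendritic cells were detected on neither array. T cell markers stood at 5 of 7 on both arrays, with 3672 and 3595, where Cd3g and Cd8a were not detected on either. Most of these sums was Cd4, at 2419 and 2387, and Cd3e, at 1015 and 1009. Of the 5 detected T cell markers 2 were higher and 3 lower, and only Cd5 was past 2-fold, at 2.21-fold lower. NK cell markers numbered 3 of 5 against 1 of 5, with 75.4 and 47.6, and Ncr1 was detected on neither array. Stromal and endothelial markers numbered 3 of 8 against 2 of 8, with 179.6 and 225. The part of these other cells in the values of the costimulation ligands was not tested.

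In the B7 family, CD80 and CD86 bind CD28, which activates T cells, and CTLA-4, which inhibits them. PD-L1 and PD-L2, the products of Cd274 and Pdcd1lg2, bind the inhibitory receptor PD-1, and ICOSL binds ICOS, a relative of CD28. VISTA, encoded by Vsir, is mainly inhibitory, and B7-H3, encoded by Cd276, has no settled T cell receptor. In macrophages these genes are known to respond to interferon and to NF-κB activity, each to a different degree.

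Of the 10 genes, 9 were detected, in each case on both arrays, and Pdcd1lg2 was not well above background on either. Cd276 and Cd274 were at least 2-fold lower in the self-renewing macrophages, by 13.4-fold and 3.42-fold. Icam1 and Icosl were at least 2-fold higher, by 2.21-fold and 2.18-fold. The other 5 differed by less than 2-fold, with Vsir, Cd80, Lgals9 and Cd86 higher and Cd48 lower. Over all 15515 genes detected on 1 array or both, 8.38% were lower by 2-fold or more and 4.76% higher, 13.1% in all. With 9 genes, the 2 lower and 2 higher members are too few to be set apart from that background. The median of the 9 genes was 0.31 log2 and that of all genes -0.02 log2.

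**Figure D1:**
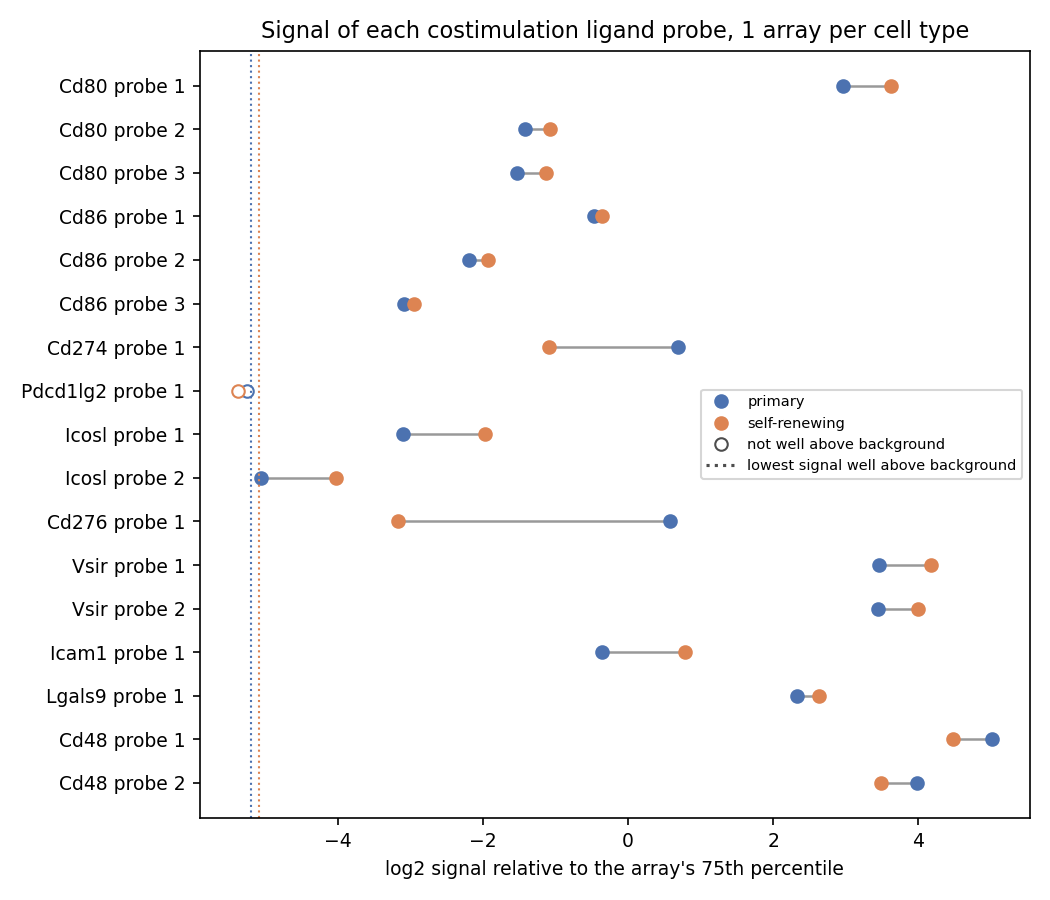
Each line is 1 probe of a costimulation ligand, and its points give the log2 signal in primary and self-renewing macrophages after setting the 75th percentile of its array to 0, with 1 array per cell type and no error bar. Cd276 and Cd274 lie lower in the self-renewing macrophages, Icam1 and both Icosl probes higher, and Pdcd1lg2 is drawn open because it was not well above background.

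The stretch of 250 bases before the transcription start is shown for the 4 genes past 2-fold, so that their composition and the letters of binding motifs can be read beside the values. The sequences are RefSeq's, on GRCm38.p6, 5′ to 3′ on the strand of the gene, and capitals mark a match to a motif searched for.
Icam1, chr9:21015690-21015939, plus strand: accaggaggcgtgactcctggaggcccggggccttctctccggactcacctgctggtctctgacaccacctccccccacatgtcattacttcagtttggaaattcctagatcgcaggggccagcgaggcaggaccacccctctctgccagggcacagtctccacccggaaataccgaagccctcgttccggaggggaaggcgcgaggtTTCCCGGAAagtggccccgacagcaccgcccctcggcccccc
Icosl, chr10:78069118-78069367, plus strand: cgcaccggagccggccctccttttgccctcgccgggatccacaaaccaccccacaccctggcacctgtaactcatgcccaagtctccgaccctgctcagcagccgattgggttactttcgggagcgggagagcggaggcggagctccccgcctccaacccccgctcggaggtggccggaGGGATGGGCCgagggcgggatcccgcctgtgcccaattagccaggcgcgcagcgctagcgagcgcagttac
Cd274, chr19:29367188-29367437, plus strand: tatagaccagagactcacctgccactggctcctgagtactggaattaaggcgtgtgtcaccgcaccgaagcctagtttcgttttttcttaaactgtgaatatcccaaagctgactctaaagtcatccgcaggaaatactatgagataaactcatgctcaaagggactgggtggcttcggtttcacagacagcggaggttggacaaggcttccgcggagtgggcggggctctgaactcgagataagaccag
Cd276, chr9:58555034-58555283, minus strand: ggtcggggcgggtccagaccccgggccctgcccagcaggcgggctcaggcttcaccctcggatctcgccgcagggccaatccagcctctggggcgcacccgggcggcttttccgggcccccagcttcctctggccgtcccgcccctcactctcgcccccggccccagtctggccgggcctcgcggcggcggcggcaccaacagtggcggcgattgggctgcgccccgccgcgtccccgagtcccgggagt
In the Icam1 stretch the capitals are TTCCCGGAA, which matches the letters TTCNNNGAA of the GAS element, a sequence of interferon-responsive promoters, and begin 42 bases before the start. In that of Icosl they are GGGATGGGCC, which matches the letters GGGA and CC with any 4 bases between them, a pattern for NF-κB sites, and begin 71 bases before the start. No motif letters were found before the starts of Cd274 and Cd276.

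Windows of 300 bases, from 250 before to 50 after the start, were matched for 9 of the 10 members, all but Cd86. The 3 motifs were searched on both strands and do not overlap one another in these windows. The NF-κB pattern was found in 4 of the 9 windows, those of Cd80, Pdcd1lg2, Icosl and Lgals9, and in 20.7% of all 32851 promoter windows. The GAS pattern was in 1 of 9, that of Icam1, against 8.30% of all windows. The interferon-stimulated response element, searched for as GAAA and GAAA with any 2 bases between them, matched 2 times in the Lgals9 window and in no other of the 9, against 3.44% of all windows. A match of letters is a description of the sequence, and its use by a factor was not measured. With any bases allowed in the middle, a match need not be a binding site. Sites spelled otherwise are missed, so a window without a match may still hold one. The Cd276 stretch had a GC content of 77.6% with 29 CpG dinucleotides, a number reached by 6.78% of all such stretches, where the medians over all were 52.4% and 6. That of Icosl had 23 CpG dinucleotides, Icam1 15 and Cd274 11.

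Cd80 and Cd86 are the ligands of CD28, and both differed by less than 2-fold. Cd80 was measured by 3 probes, whose background-corrected intensities were 3388, 162 and 150.1 in primary and 5510, 212 and 203 in self-renewing macrophages. Every Cd80 probe was thus brighter in the self-renewing macrophages, by 0.66, 0.35 and 0.39 log2. The brightest gave 1.58-fold. Cd86 stood at intensities of 314.5, 94.8 and 51.2 in primary and 349, 117 and 57.4 in self-renewing macrophages over its 3 probes. The differences were 0.11, 0.27 and 0.13 log2, all in the same direction, and the brightest probe gave 1.08-fold. To see how far probes disagree, the difference was compared between probes of the same gene where several were detected on both arrays. Its SD was 0.32 log2 as a root mean square over 5077 genes. All probes shared the same 2 arrays, so this spread holds no variation between cultures or arrays. The Cd86 differences were within that spread, while that of the brightest Cd80 probe was about as large as those of many other genes, since 8.63% of the 14003 genes measured on both arrays were higher by as much or more. Intensities of different probes cannot be set against each other, so no order of CD80 over CD86 follows from them.

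Cd274, which encodes PD-L1, had an intensity of 700 in primary and 211 in self-renewing macrophages by its 1 probe. On the scaled log2 axis it stood at 0.69 in the primary and at -1.08 in the self-renewing macrophages, a difference of -1.77 log2. Of the genes measured on both arrays, 2.21% were lower by as much or more. Pdcd1lg2, which encodes PD-L2, had intensities of 11.3 and 10.7. The lowest intensities of any probe well above background were 11.8 and 13.2 on the primary and self-renewing arrays, so that Pdcd1lg2 was below the range that the arrays could measure and no fold is given. Of the PD-1 ligands, only the difference of Cd274 could thus be measured, and how Pdcd1lg2 differed is unknown.

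Icosl, the ligand of ICOS, was dim. Its probes had intensities of 50.5 and 13.0 in primary and 113 and 27.4 in self-renewing macrophages. Both were higher in the self-renewing macrophages, by 1.12 and 1.04 log2, and the dimmer probe lay close to the lowest signal well above background in the primary macrophages. Among genes as dim as this, more than 2 log2 below the 75th percentile, probes of the same gene varied by 0.49 log2 over 544 genes, against 0.25 log2 over 2944 genes above that percentile. With a model-based background correction that draws dim signals together (normexp), Icosl was 0.71 log2 higher and no longer past 2-fold.

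Cd276, which encodes B7-H3, showed the largest difference among the members. Its intensity was 647 in primary and 49.7 in self-renewing macrophages, or 0.58 and -3.17 on the scaled log2 axis. The difference was -3.74 log2, and 0.464% of the genes measured on both arrays were lower by as much or more. It rests on 1 probe, and with the normexp correction it was -2.63 log2. Vsir, which encodes VISTA, had intensities of 4766 and 4740 in primary and 8043 and 7097 in self-renewing macrophages. Its probes gave 0.71 and 0.54 log2, or 1.64-fold by the brighter, so that the B7 family held members that were higher, lower and nearly level between the same bulk cultures.

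**Figure D2:**
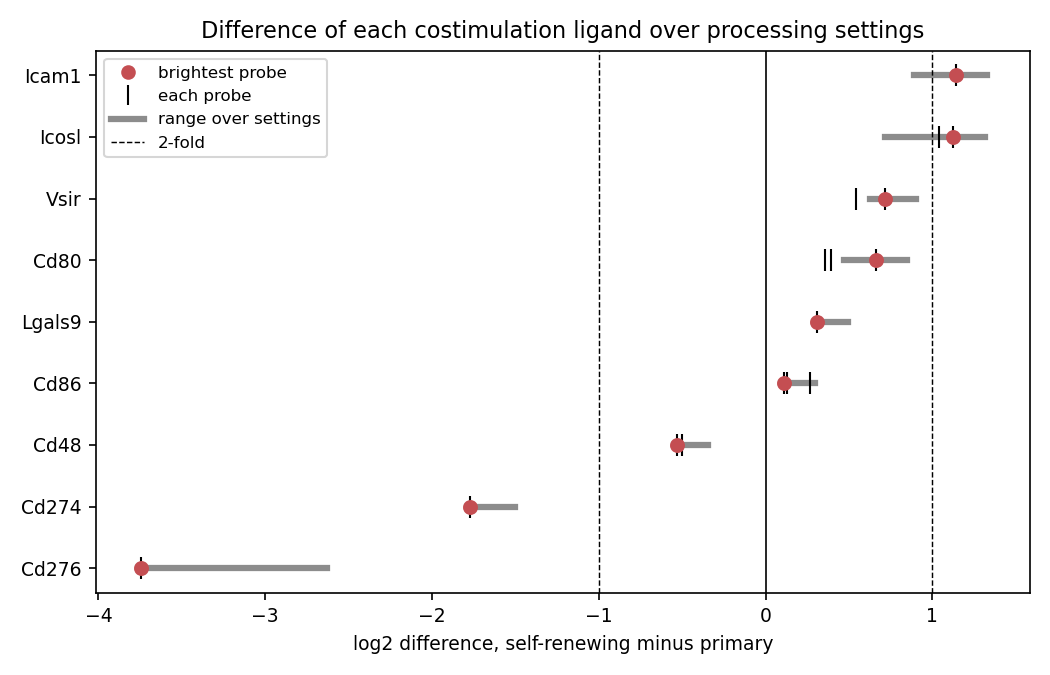
Points give the log2 difference of each ligand, self-renewing minus primary, by its brightest probe. Ticks give each probe, grey bars the range over the processing used and 8 alternatives, and dashed lines 2-fold. Cd276 and Cd274 stay below the lower line throughout, while the bars of Icam1 and Icosl cross the upper one.

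Icam1 encodes the adhesion molecule that holds a T cell to the presenting cell through the integrin LFA-1. Its intensity was 338 in primary and 766 in self-renewing macrophages by 1 probe, a difference of 1.14 log2. With normexp it was 0.89 log2, so that neither Icam1 nor Icosl was past 2-fold and the number of members at least 2-fold higher was 0. The subunits of LFA-1 itself were also measured, since macrophages carry it. Itgal stood at 219 in primary and 749 in self-renewing macrophages and was 3.33-fold higher, and Itgb2 differed by -0.05 log2, with a sign that scaling alone can turn.

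Lgals9 encodes galectin-9, a secreted lectin that binds TIM-3 among other receptors. Its 1 probe had intensities of 2171 and 2762, a difference of 0.31 log2, within the spread between probes of a gene. Cd48 encodes a SLAM family protein that binds CD2 and CD244. Its probes had intensities of 14058 and 6871 in primary and 9989 and 5001 in self-renewing macrophages. Both were lower, by 0.53 and 0.50 on the log2 scale, and 12.8% of the genes measured on both arrays were lower by as much or more.

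**Figure D3:**
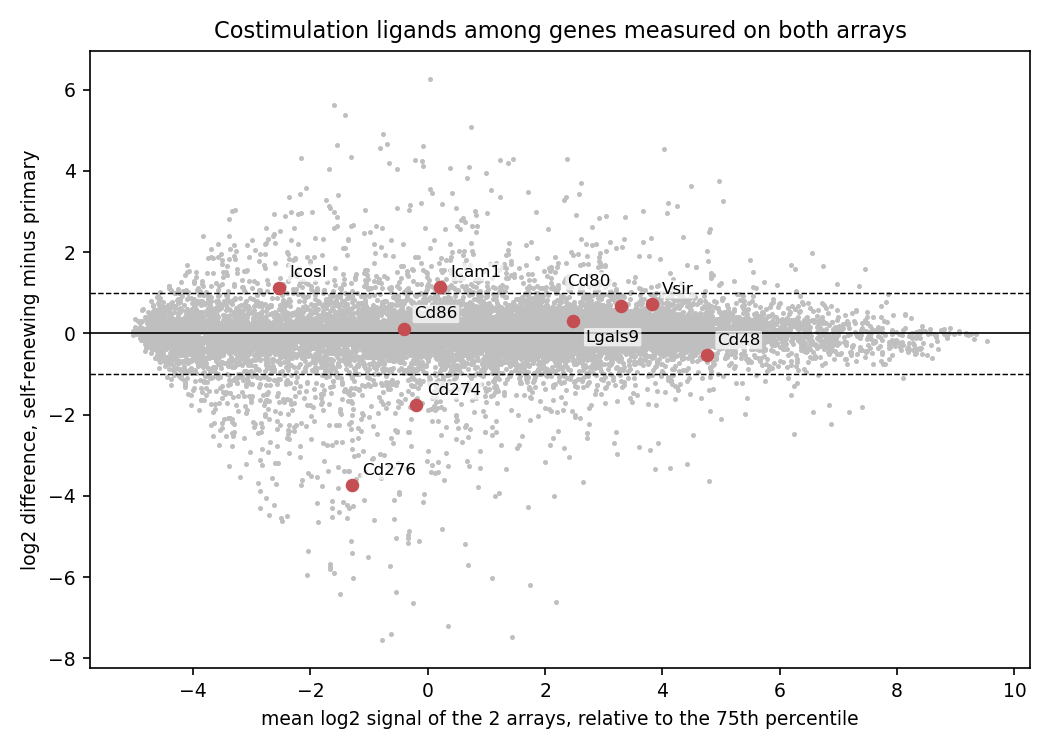
Grey points are the 14003 genes measured on both arrays, by mean log2 signal and log2 difference between self-renewing and primary macrophages, and red points are the 9 costimulation ligands so measured. Dashed lines mark 2-fold, and Cd276 at -3.74 log2 lies farthest from zero of the ligands.

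How far the ligands stood apart from related genes was looked at with 9 lists of 83 genes in all. Detected on 1 array or both were 66. In the self-renewing macrophages 8 were higher by 2-fold or more and 17 were lower, 12.1% and 25.8% against 4.76% and 8.38% of all genes. The median over the 66 genes was 0.00 log2. The lists were picked for immune functions of macrophages, and 6 of the 17 lower genes belong to the MHC class II list.

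Costimulation ligands and receptors of the TNF family went both ways. Of 8 measured, 4 were higher and 2 lower by 2-fold or more. At any size, 4 were higher and 4 lower, with Tnfsf14 just short of 2-fold lower at -0.99 log2. Tnfrsf14, counted as lower, was at -0.05 log2 by its brighter probe and 0.65 log2 by the other, so its sign is not settled. The list median was 0.61 log2, between Tnfrsf14 and Tnfsf9 at 1.26 log2, with no gene near it. It was 0.19 log2 with normexp and -0.05 log2 over 9 genes with no filter on background. Tnfsf8, the CD30 ligand, had intensities of 84.7 in primary and 1684 in self-renewing macrophages, which is 19.3-fold higher. Tnfsf15, which encodes TL1A, was 5.02-fold higher by its brighter probe, a difference of 2.33 log2, and 1.59 log2 higher by the other. Tnfsf9, the 4-1BB ligand, was 2.40-fold higher. Tnfsf18, the GITR ligand, was detected on the self-renewing array only and was at least 3.15-fold higher. In the other direction, Cd40, through which helper T cells activate macrophages, had intensities of 372 and 60.01 and was 6.38-fold lower. Cd70, the CD27 ligand, was detected on the primary array only and was at least 2.34-fold lower. With normexp Tnfsf8 was 12.0-fold and Tnfsf15 2.21-fold higher, and Cd40 3.48-fold lower. With that correction neither the Tnfsf18 nor the Cd70 bound reached 2-fold, and with quantile normalization that of Cd70 did not.

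SLAM and adhesion genes were split as well. Of 11 measured, Slamf7, Icam2, Ly9 and Slamf8 were 8.96-fold, 6.01-fold, 5.87-fold and 5.35-fold lower in the self-renewing macrophages. F11r, a junctional adhesion molecule that also binds LFA-1, was 6.63-fold higher, as was Itgal to the smaller extent given above. The median of the list was -0.05 log2. Against these, the difference of Cd48 was small. Of 9 other inhibitory ligands measured, 2 were at least 2-fold lower and 0 higher. These were Fgl2, a secreted inhibitor of T cells, at 11.8-fold, and Cd200, a ligand that restrains myeloid cells, which was detected on the primary array only and was at least 14.2-fold lower. With normexp these were 3.39-fold and at least 3.52-fold lower. The list median was -0.08 log2 in the processing used. With quantile normalization, and with the authors' scaling, 1 of the 9 inhibitory ligands was at least 2-fold higher. The neutrophil markers and most of the detected dendritic and B cell markers, Itgax and Cd79b among them, were lower in the same culture. Zbtb46 and Cd79a, both dim, were higher by less than 2-fold. The part of these other cells in the values of the inhibitory ligands was not tested. Of other B7-like and butyrophilin genes, 5 of 8 were detected on neither array, Vtcn1 among them, and 0 of the other 3 were past 2-fold, with a median of 0.21 log2.

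The receptors that T cells use for these ligands were mostly not measurable. Of 12, 8 were detected on neither array, among them Ctla4, Pdcd1, Tigit and Lag3. Icos and Cd2 were detected on the primary array only, at least 2.08-fold and at least 4.40-fold lower in the self-renewing macrophages, bounds that normexp brought under 2-fold, as quantile normalization and the authors' scaling did that of Icos. Cd28 differed by -0.43 log2 and Havcr2, which encodes TIM-3, by 0.51 log2. The median of the 4 was -0.74 log2, which depends on the bounds of Icos and Cd2. It was -0.38 log2 with normexp and 0.04 log2 over the 2 genes measured on both arrays.

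Antigen presentation differed by class. MHC class II molecules present peptides to CD4 T cells, and 6 of 7 genes of that list were lower by 2-fold or more in the self-renewing macrophages. The list median was -2.40 log2. Ciita, the master regulator of the class, had intensities of 471 and 49.5 by its brighter probe and was 9.79-fold lower, with its other probe at -1.35 log2 and 4.92-fold with normexp. H2-Ab1, H2-Aa, H2-Eb1, H2-DMa and Cd74, the invariant chain, were 8.27-fold, 5.40-fold, 5.29-fold, 4.44-fold and 4.21-fold lower, and H2-DMb1 differed by 0.28 log2. Of 6 MHC class I genes 0 were past 2-fold, and the median was 0.42 log2. Cd274 and Cd276 were lower in the culture in which class II genes were lower, whereas the CD28 ligands Cd80 and Cd86 were not. Of all detected genes, 8.38% were also lower there by 2-fold or more. With 1 array of each culture, no link between these genes and class II follows. Dendritic cells and B cells also carry class II molecules. Of 6 dendritic cell markers detected, 5 were lower, 3 of them by 2-fold or more, and Zbtb46 was 0.62 log2 higher. Of 4 B cell markers detected, 3 were lower, 2 of them by 2-fold or more, and Cd79a was 0.41 log2 higher. Both Zbtb46 and Cd79a were dim. The part of these cells in the class II values was not tested.

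Among genes known to induce the ligands, 2 of 12 were higher by 2-fold or more and 0 lower, against 4.76% and 8.38% of all genes. A count of 2 is too few to be set apart from that background. The list median was 0.34 log2. The 2 higher genes belong to the noncanonical NF-κB pathway, Relb at 3.05-fold and Nfkb2 at 2.13-fold, and each was higher by both of its probes. These are RNA levels, and the activity of the pathways was not measured. Of the interferon-γ pathway, which induces Cd274, those named here were under 2-fold, with Irf1 at 0.34 and Jak2 at -0.05 log2, the last of no fixed sign across scalings. Of 6 genes of protein turnover and shedding, with a median of 0.04 log2, Cd83, which shields CD86 and class II molecules from degradation, was 4.97-fold lower. Cmtm6, which keeps PD-L1 at the surface, was 0.44 log2 higher, and Marchf1, the ligase that removes CD86, differed by -0.13 log2.

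**Figure D4:**
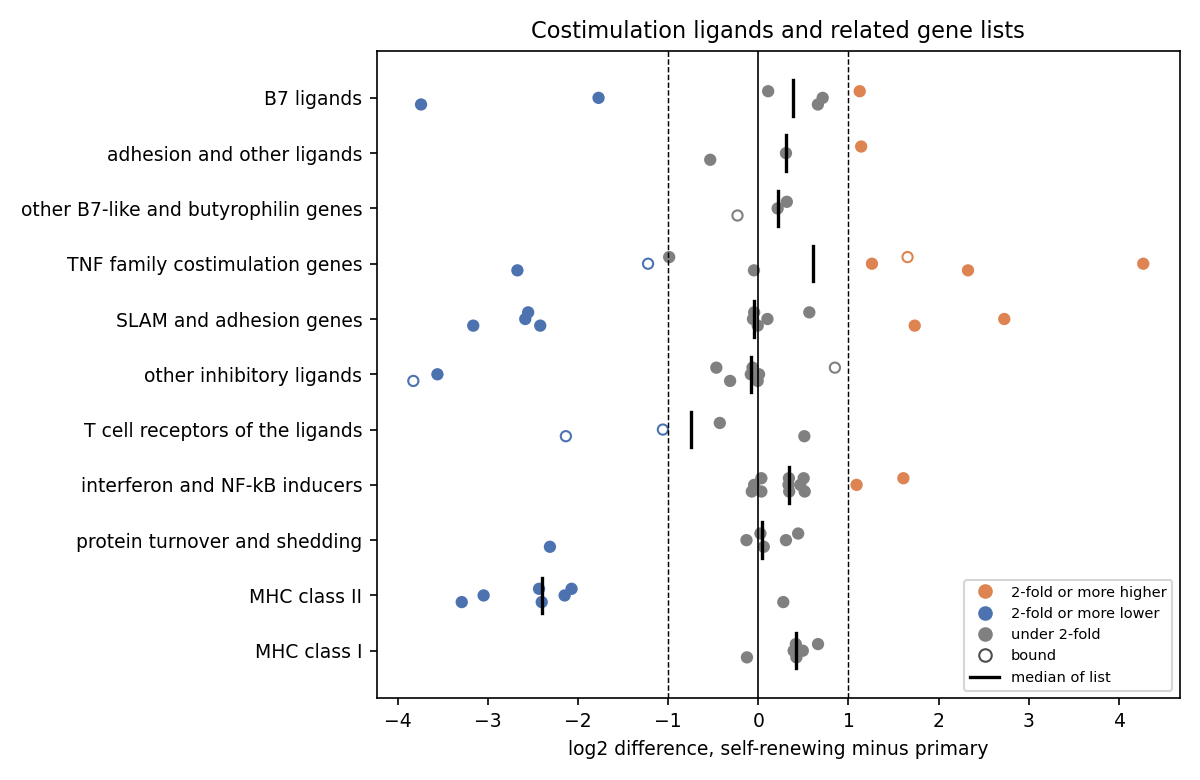
Each point is the log2 difference of a gene, self-renewing minus primary, in the costimulation ligands (top 2 rows) and 9 related lists, with open points for bounds, black bars for list medians and dashed lines at 2-fold. The MHC class II list lies lowest, with a median of -2.40 log2, and the TNF family list highest, at 0.61 log2. The top rank depends on the processing. With normexp (not drawn) the TNF family median was 0.19 log2 and that of MHC class I was highest, at 0.43 log2. With no filter on background (not drawn) the TNF family median was -0.05 log2.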

How the data were processed

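The authors deposited the scanner output of 2 one-dye Agilent SurePrint G3 mouse arrays, made with Feature Extraction 11.5.1.1. Its intensity values are background-corrected within the array and not scaled between arrays. The 0 or 1 flags were deposited with them, and no gene spot was saturated. The deposited table of intensity values equals the same signal times a constant, 1.07 on the primary and 1.19 on the self-renewing array, a scaling whose basis is not given in the sources used here. Both arrays were on 1 slide.

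Outlier-flagged spots (63 gene spots an array) were dropped and repeat spots averaged. The 75th percentile of gene probes, an intensity of 434 and 446, was set to 0 on the log2 scale. Accessions were matched to names in a RefSeq table of GRCm38.p6 for 32988 of 56598 probes. The array design uses an earlier build, so no probe coordinates are given. Per gene, the probe with the highest mean signal was used. A probe well above background on 1 array only gave a bound, written as at least N-fold. On the dim array, its own signal or the lowest signal of any detected probe, whichever was higher, stood in for it. Probes in 9 or more spots had a median SD between spots of 0.041 and 0.046 log2. The number of arrays limits the precision.

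Differences were called at 2-fold by size, with no test. The calling code was run on simulated data with changes well past 2-fold and noise smaller than the spread between probes. That run does not bear on calls near 2-fold or on the lack of replicates. The members and gene lists were chosen with earlier results of these data known. Named were the 10 members, list genes past 2-fold and a few fixed regulators. The value of 1 fixed regulator is not reported here. Cd28, Havcr2, Marchf1, H2-DMb1, Tnfsf14, the undetected receptors, Mertk, Fcgr1, Zbtb46, Itgax, Cd79a, Cd79b, Pax5, Vtcn1 and the chromosome neighbours were added after their values were seen. So were Tnfrsf14, Cd3e, Cd4 and Cd5. Alternatives were normexp with an offset of 50 on the median spot signal, quantile normalization, other percentiles, the authors' scaling, other filters on dim probes, the mean over probes and other fold thresholds. Python 3.11.15, numpy 2.4.6, pandas 2.3.3, matplotlib 3.10.9, R 4.3.3 and limma 3.58.1 were used.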

Additional observations from a re-analysis of the deposited data

How the results depend on the processing

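Each of the 9 measured members kept its direction under all 8 alternatives, and of 72 member values 70 moved by less than the 0.32 log2 between probes of a gene. The exceptions were Icosl at 0.71 and Cd276 at -2.63 log2 with normexp, which adds an offset that draws dim signals together. Pdcd1lg2 had a value, -0.12 log2, only with no filter on background. The number of members at least 2-fold lower was 2 under every alternative, and the number higher was 0 with normexp, 4 at a threshold of 1.5-fold and 0 at 3-fold. Over all genes, normexp gave 429 higher and 750 lower, against 739 and 1300 in the processing used, no filter on background gave 1192 and 2336, and keeping only probes well above background on both arrays gave 782 lower. The authors' scaling moved every gene by 0.19 log2 towards the self-renewing macrophages, so that 49.2% of the genes past 2-fold were higher in place of 36.2%. Normexp moved the median probe by -0.11 log2. Of the 25 list genes past 2-fold, 25 kept their direction and 21 stayed past 2-fold under all alternatives that gave a value. The exceptions were Tnfsf18, Cd70, Icos and Cd2, each measured on 1 array. No paired analysis was possible because the design holds a single array of each kind. Signals near background, as those of Pdcd1lg2 and the dimmer Icosl probe, limit what can be compared.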

Other observations

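The genes beside Cd274 and Cd276, the ligands past 2-fold lower, were looked at in the order of genes on their chromosomes. Cd274 and Pdcd1lg2 lie next to each other on chromosome 19, with 0 protein-coding genes between them. Of the 10 nearest genes measured on both arrays, 5 on each side of Cd274, 0 were past 2-fold, and they ranged from -0.63 log2 for Insl6 to 0.38 log2 for Ranbp6. Around Cd276 on chromosome 9, the lowest of the 10 was Tbc1d21 at -0.33 log2, and 1 was past 2-fold, Neo1, a receptor of the netrin and RGM families, at 4.60 log2.

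Cd48 lies on chromosome 1 among other SLAM family genes, which differed from one another. Of its 10 nearest measured genes, Slamf7 and Ly9 were lower in the self-renewing macrophages by 3.16 and 2.55 on the log2 scale, Cd84 and Cd244a differed by 0.57 and 0.10 log2, and F11r was 2.73 log2 higher. The 2 probes of Cd244a disagreed in sign, at 0.10 and -0.21 log2.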
